A study of Mus musculus with 20 samples.

Results

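Complex I, NADH:ubiquinone oxidoreductase, is the entry enzyme of the mitochondrial respiratory chain. It takes electrons from NADH, passes them along a chain of iron-sulfur clusters to ubiquinone and uses the energy to pump protons across the inner membrane. An arm in the matrix holds the N module, where NADH is oxidised, and the Q module, where ubiquinone is reduced, and an arm in the membrane, with a proximal and a distal part, carries the proton channels. The channels are encoded in mitochondrial DNA, and most other subunits are encoded in the nucleus and imported. Heart muscle depends on this chain for its ATP, and its mitochondria expand in the days after birth. The genes described are the nuclear Nduf genes, taken as every listed symbol made of Nduf, one of the letters a, b, c, s or v, and a number, with or without a further letter and number. They came to 40 of the 55367 genes listed. The acyl carrier subunit Ndufab1 and the assembly factors do not match this rule.

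RNA with poly(A) tails was sequenced on postnatal day 4 from C57BL/6J mouse pups, with a library for each left atrium or left ventricle. The pups had breathed 100% oxygen (hyperoxia) or room air with 21% oxygen since birth, and nursing dams were moved between the chambers every day, so both sets of dams met both gases. The groups were the hyperoxic left atrium (numbers 1 to 5), the room-air left atrium (1 to 5), the hyperoxic left ventricle (numbers 1, 2, 4, 5 and 6) and the room-air left ventricle (1 to 5), each with libraries from 5 individual mice. The labels do not say whether an atrium and a ventricle of the same number came from 1 mouse. In hyperoxia number 2 had more Y-linked than Xist reads in both chambers and numbers 1, 4 and 5 in neither. The labels name no genetic change and no other agent for any group. The sex of the pups is not in the labels.

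Total counts ran from 26510081 to 38244117 per library. Levels are given as CPM, each count relative to the scaled total of its library. Chamber markers fitted the labels: Myl7, the atrial myosin light chain, was at 4325 to 11370 CPM in hyperoxic and 6298 to 8447 CPM in room-air atria, and at 2.66 to 128 CPM in hyperoxic and 19.5 to 530 CPM in room-air ventricles. Myl2, the ventricular light chain, stayed under 22.0 CPM in hyperoxic atria but reached 328 CPM in room-air atrium 1. More Y-linked than Xist reads were found in 1 of 5 hyperoxic atria, 5 of 5 room-air atria, 2 of 5 hyperoxic ventricles and 5 of 5 room-air ventricles, so sex and oxygen cannot be fully told apart.

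The Nduf genes have short transcripts. Their principal transcripts run from 419 to 4371 bases with a median of 908, against a median of 3154 for all genes used to measure length bias. For each library the slope of log2 CPM (relative to the chamber mean) on log2 exon length was computed over 11096 genes of at least 5 CPM, with the Nduf genes left out. A slope below 0 means that short transcripts took more of the reads. The slope was -0.287 and -0.281 in hyperoxic atria 2 and 4 and -0.218 in room-air ventricle 4. The remaining 17 libraries had slopes from -0.0681 to 0.132. These 3 libraries are called tilted from here on. Each comparison is given without a length term, with the slope as a covariate, and, where it differs, without the 3 tilted libraries. The median Nduf gene stood 0.94 and 0.95 (log2) above its chamber mean in hyperoxic atria 2 and 4 and 0.77 above it in room-air ventricle 4. In the other 17 libraries this median lay between -0.40 and 0.30.

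**Figure D1:**
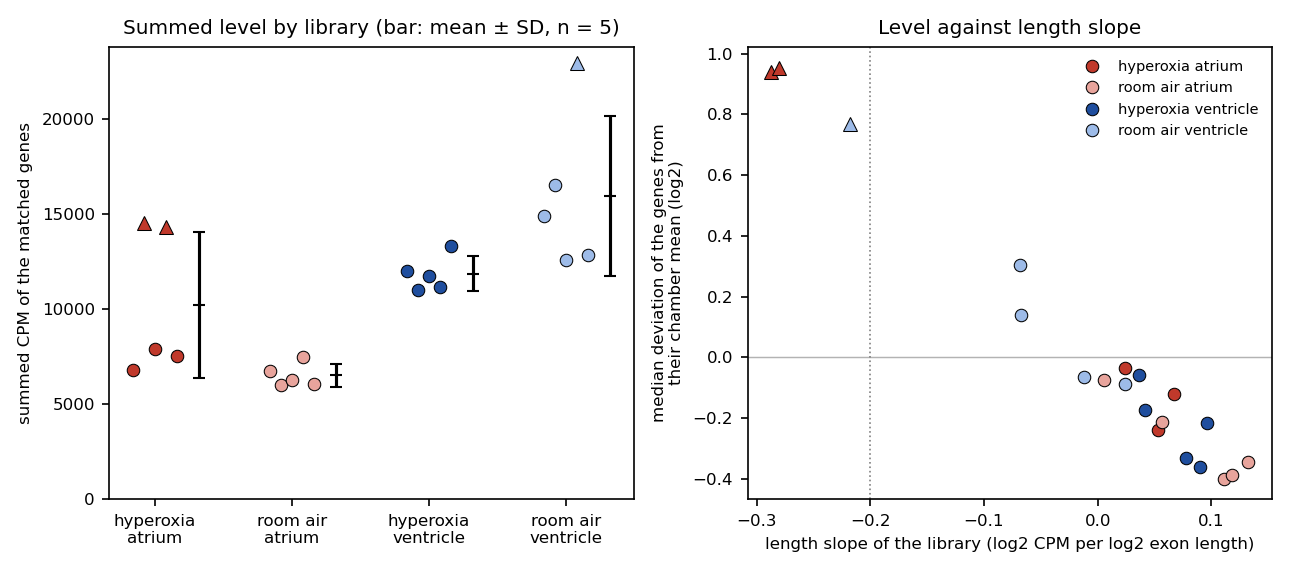
Left, summed CPM of the 40 matched genes in each library by group, with mean ± SD (n = 5) and triangles for the 3 libraries with a length slope below -0.2 (dotted line on the right); right, the median log2 deviation of the 38 tested genes from their chamber mean against the length slope of the library. The 3 triangles stand highest in their groups and have the lowest slopes, and the libraries with slopes above 0 all lie below their chamber mean.

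Of the 40 genes, 38 passed the low-count filter. Ndufs6b with 52 counts and Ndufa11b with 30 counts over all 20 libraries did not, and Ndufb4c passed with 399 counts. These 3 are annotated as processed pseudogenes, and reads could be divided between such a copy and the gene it resembles. The other 37 comprise 8 genes of the N module, 8 of the Q module, 9 of the proximal and 10 of the distal membrane arm, together with Ndufa4, now known as a subunit of cytochrome c oxidase (complex IV), and its paralog Ndufa4l2. Exons of Ndufb2, Ndufb8 and Ndufb9 overlap another annotated gene on the same strand, and those of 14 genes overlap one on the opposite strand, so their counts are less certain. Ndufa1 and Ndufb11 lie on the X chromosome, which matters where the sexes are unequal.

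Start regions from RefSeq (GRCm38.p6, 250 bases before to 50 after the first base of the transcript) matched 32 of the 40 genes. They are shown because a short word recurs in 7 of them, at the point where the reading frame begins. The word AAGATGGC, the core of the YY1 recognition sequence, was present on either strand in 7 of the 32 (21.9%), against 3.19% of 27025 genes with such a window. In all 7 it lay on the strand of the gene, after the transcript start, and its ATG was the annotated start codon. The 27025 genes were not limited to those with a start codon inside the window. The shares of 21.9% and 3.19% are therefore not strictly comparable. The 30 bases around it are given 5′ to 3′ on the strand of the gene, with the word in capitals.
Ndufs6, N module, chr13:73328433-73328462, minus strand: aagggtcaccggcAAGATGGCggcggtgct
Ndufs4, N module, chr13:114388045-114388074, minus strand: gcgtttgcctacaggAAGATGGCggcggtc
Ndufa9, Q module, chr6:126849097-126849126, minus strand: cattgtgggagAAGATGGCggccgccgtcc
Ndufs7, Q module, chr10:80249462-80249491, plus strand: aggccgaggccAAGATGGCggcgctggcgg
Ndufa3, proximal arm, chr7:3617384-3617413, plus strand: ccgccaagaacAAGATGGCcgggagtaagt
Ndufc1, proximal arm, chr3:51408915-51408944, minus strand: gcctgcggaacAAGATGGCgccgtccgtag
Ndufb8, distal arm, chr19:44555393-44555422, minus strand: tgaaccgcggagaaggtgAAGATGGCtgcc
The words of other factors known to act on respiratory genes were rarer, with any overlap between words allowed. The palindromic word of NRF1 was in 1 of 32 (Ndufa11) and in 1.07% of all genes. CCGGAAGT, read by GABPA, was in 1 of 32 (Ndufs3) and in 4.31% of all genes. TCAAGGTCA, read by the estrogen-related receptors, was in 0 of 32 and in 0.466% of all genes. These counts describe letters in the windows only. Of the 7 genes with AAGATGGC, Ndufa9 and Ndufb8 rose in the hyperoxic atrium with the length slope in the model. Ndufs4, Ndufs6, Ndufs7, Ndufa3 and Ndufc1 passed in neither direction. In that fit 6 of the 38 Nduf genes tested and 17.6% of all genes rose. Whether the word is linked to any difference in level was not tested.

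Levels per kilobase of principal transcript (CPM per kb, 37 genes) spanned a wide range. They are means over all 5 libraries of a group, with the tilted ones included. Ndufa4, a complex IV subunit, was the most abundant in every group. It was at 1112 in hyperoxic atria, 721 in room-air atria, 1283 in hyperoxic ventricles and 1743 in room-air ventricles. Without the tilted libraries and not per kb, Ndufa4 averaged 481 CPM in hyperoxic (n = 3) and 440 CPM in room-air atria (n = 5). Ndufb7 and Ndufb10, small distal-arm subunits, and Ndufa11 of the proximal arm filled ranks 2 to 4 in every group. Ndufs6, a zinc-binding subunit of the N module, was at rank 16 in hyperoxic and 18 in room-air atria but at rank 5 in both kinds of ventricle. Ndufa4l2, the paralog of Ndufa4, was among the lowest at 9.37, 21.3, 23.3 and 40.3 CPM per kb, in the same order of groups. Ndufs1, the largest core subunit and carrier of several iron-sulfur clusters, was at 133, 108, 174 and 138. The neighbouring ranks 2 to 4 changed places between groups, and the ranks of Ndufb2 and Ndufb4 at the bottom of the list rest on the annotated transcript length, which for Ndufb2 is 4371 bases.

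In the hyperoxic atrium most Nduf genes were higher than in the room-air atrium when length was left out of the model, and few were once it was included. Without a length term 34 of 38 rose and 1 fell, with a median log2 difference of 0.70. Over all 16598 genes tested 19.7% rose and 24.2% fell, with a median of -0.063. The summed level was 6774, 14508, 7882, 14311 and 7543 CPM in hyperoxic atria 1 to 5, against 6732, 5989, 6276, 7487 and 6033 CPM in room-air atria. Both high sums belong to the tilted libraries, and the other 3 hyperoxic atria averaged 7400 ± 568 CPM (SD, n = 3) against 6503 ± 624 CPM (SD, n = 5). With the length slope in the model 6 rose and 3 fell, with a median of 0.05, against 17.6% and 22.6% of all genes. Without the 3 tilted libraries 11 rose and 2 fell, with a median of 0.18, against 17.1% and 21.9%. Leaving out hyperoxic atrium 2 or 4 alone gave 19 that rose in either case. Across the 37 genes with a length, Spearman's rho between transcript length and the log2 difference was 0.02 without and 0.37 with the slope term, as a description over genes that share the same libraries.

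With the length slope in the model 6 of the 38 genes rose (15.8%), which is not above the share of all genes (17.6%). They came from every region of the enzyme. Ndufa9 (chr6:126821721-126849136, minus strand, GRCm38), an NADPH-binding subunit of the Q module, had 237, 421, 285, 446 and 289 CPM in the hyperoxic atria, against 191, 177, 185, 216 and 195 CPM in the room-air atria. Every hyperoxic atrium was above every room-air atrium. Its log2 difference was 0.40 ± 0.084 with the slope (adjusted p = 3.8e-04, edgeR quasi-likelihood test with Benjamini-Hochberg adjustment over all 16598 genes, as for every adjusted p here) and 0.80 ± 0.15 without it. Ndufa10 (chr1:92439010-92473860, minus strand), a proximal-arm subunit related to nucleoside kinases, had 354, 609, 417, 625 and 397 CPM in the hyperoxic atria, against 281, 267, 293, 327 and 288 CPM. Its groups did not overlap either, and it rose by 0.31 ± 0.071 (adjusted p = 9.6e-04). Ndufa12 (chr10:94198720-94221443, plus strand), an N-module subunit related to an assembly factor, had 91.7, 205, 106, 206 and 104 CPM, against 79.9, 65.7, 74.7, 84.3 and 68.5 CPM, again without overlap, and rose by 0.29 ± 0.078 (adjusted p = 0.0044). These 3 were the only genes of the 38 that were higher in every hyperoxic than in every room-air atrium. Of all genes 13.6% were, which is a larger share.

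Ndufv1 of the N-module core and Ndufb8 of the distal arm also rose with the slope. Ndufv1, which binds FMN and NADH, had 380.3, 678, 447, 684 and 422 CPM in the hyperoxic atria, against 327, 318, 343, 395 and 325 CPM in the room-air atria. It rose by 0.21 ± 0.071 with the slope (adjusted p = 0.022) and 0.61 ± 0.15 without. Ndufb8 rose by 0.19 ± 0.076 (adjusted p = 0.048). With the share of Y-linked reads added beside the slope, 0 of the 38 rose and 2 fell, and Ndufa9, Ndufa10 and Ndufa12 then had adjusted p of 0.091, 0.090 and 0.058. In that fit oxygen rests on few libraries, since more Y-linked than Xist reads were found in 1 hyperoxic atrium and in all 5 room-air atria.

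Among the genes without a call once length was included, the named core and accessory subunits had differences between -0.14 and 0.20. Ndufs1 had 291, 348, 342, 406 and 382 CPM in the hyperoxic atria, against 274, 277, 289, 304 and 299 CPM in the room-air atria, and differed by 0.20 ± 0.10 with the slope (adjusted p = 0.14). Ndufs4, an accessory subunit needed to fix the N module in place, had 129, 315, 154, 308 and 154 CPM, against 124, 110.2, 115, 137 and 111 CPM. Both tilted libraries stood far above the other 3, and the difference was 0.83 ± 0.22 without and 0.18 ± 0.10 with the slope. Ndufs4 rose without the tilted libraries (0.29 ± 0.11, adjusted p = 0.036). Ndufc2 of the proximal arm had 127, 272, 141, 293 and 140.1 CPM, against 130.1, 118, 117, 134 and 106 CPM, with 0.68 ± 0.20 without and 0.066 ± 0.073 with the slope. Ndufb11 had 239, 498, 273, 508 and 260.1 CPM, against 243, 219.5, 227, 275 and 214 CPM, and its difference went to 0.023 ± 0.066 with the slope. Ndufa1 had 118, 275, 137, 244 and 138 CPM, against 139, 125, 127, 157 and 123 CPM. Outside the tilted libraries all 3 hyperoxic atria were inside or below the room-air range for Ndufa1, which passed in neither fit (-0.14 ± 0.084 with the slope, adjusted p = 0.20). Ndufs3 of the Q core likewise passed in neither.

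Ndufv3, Ndufa2 and Ndufa4l2 were lower in the hyperoxic atrium with the length slope in the model. Ndufv3 (chr17:31520115-31531331, plus strand), a small N-module subunit made in a long and a short form, had 162, 344, 177, 333 and 188 CPM in the hyperoxic atria, against 225, 208, 210.0, 253 and 196 CPM in the room-air atria. The 3 hyperoxic atria that were not tilted all lay below the room-air range, and the tilted ones above it. Its log2 difference was 0.14 ± 0.20 without a length term, -0.45 ± 0.086 with the slope (adjusted p = 1.4e-04) and -0.32 ± 0.12 without the tilted libraries (adjusted p = 0.044). Set against Ndufv2, another N-module gene with a transcript of like length, Ndufv3 stood at 49.1 ± 3.2 per 100 Ndufv2 CPM in hyperoxic atria and 74.8 ± 4.5 in room-air atria (SD, n = 5 each), a ratio picked after the values were seen and not tested. Ndufa2, with a thioredoxin-like fold, was 0.72 ± 0.27 without and -0.19 ± 0.077 with the slope (adjusted p = 0.048), and at -0.0015 without the tilted libraries it passed no test.

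By region, the calls in the atrium without a length term covered 7 of 8 N-module, 7 of 8 Q-module, 8 of 9 proximal-arm and 10 of 10 distal-arm genes, all higher, with medians of 0.74, 0.62, 0.70 and 0.71, beside 19.7% of all genes higher. With the slope they were 2 higher and 2 lower of 8, 2 of 8, 1 of 9 and 1 of 10 higher, with medians of 0.16, 0.05, -0.01 and 0.04, beside 17.6% of all genes higher and 22.6% lower, so that 1 of 9 and 1 of 10 lie below the share of all genes. In all, 12 of the 38 changed sign between the fits in the atrium, among them Ndufc1, Ndufa5, Ndufb2, Ndufa3, Ndufa13, Ndufb7, Ndufb4 and Ndufa11, which rose without the slope and lay between -0.17 and -0.0087 with it. Of the 9 genes with the longest transcripts 4 rose and 1 fell with the slope, against 1 and 1 of the 13 with the shortest. Cell type markers moved as well: with no length term, 6 of 7 endothelial and 4 of 5 fibroblast markers fell and 4 of 5 macrophage markers rose in the hyperoxic atrium, and 2 of 5 atrial cardiomyocyte markers rose. With the slope these counts were 5, 4, 4 and 2. In each of the 2 fits 1 endothelial and 1 fibroblast marker went the other way and rose. Of 6 cardiomyocyte markers 1 rose and 2 fell without a length term, and 0 rose and 2 fell with the slope. Of 4 ventricular cardiomyocyte markers 3 fell, with sums from 383 to 774 CPM in hyperoxic and from 472 to 902.5 CPM in room-air atria. The summed endothelial markers ran from 762 to 927 CPM in hyperoxic and from 1039 to 1209 CPM in room-air atria, those of fibroblasts from 1507 to 2099 and from 2940 to 3664 CPM, those of macrophages from 128 to 201 and from 94.6 to 107 CPM, those of atrial cardiomyocytes from 25954 to 50100 and from 17749 to 22897 CPM, and those of cardiomyocytes of either chamber from 22696 to 31722 and from 25230 to 31816 CPM. No marker of these lists was at 0 throughout a group. Their part in the Nduf differences was not tested, and in tissue RNA fewer cells of a type and less RNA per cell cannot be told apart.

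**Figure D2:**
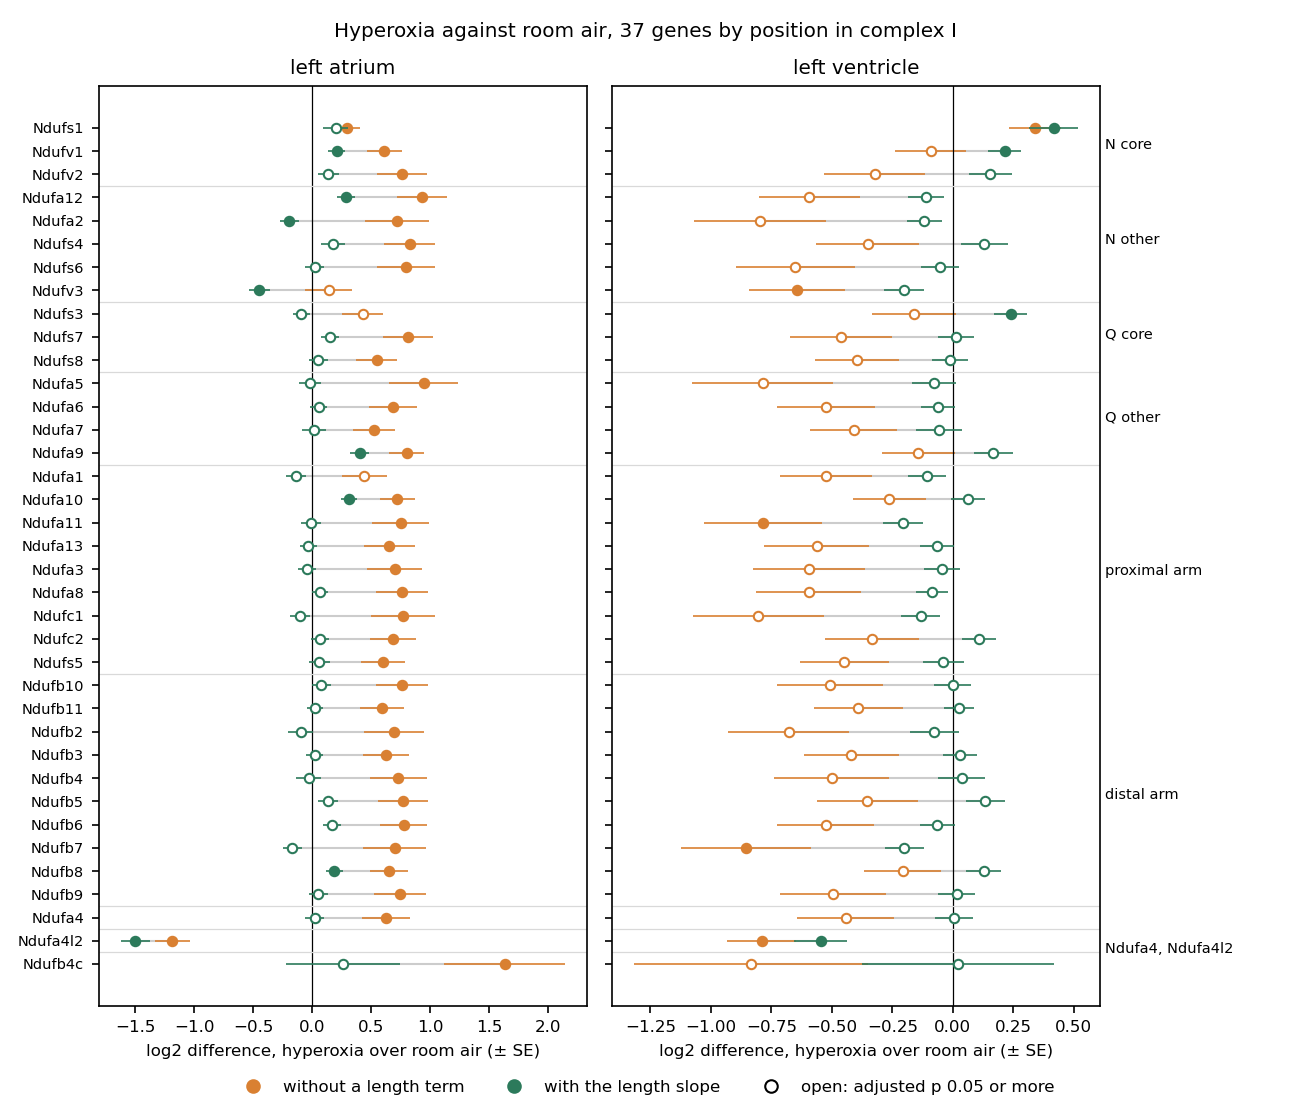
Log2 difference of hyperoxia over room air (± SE, edgeR fit on 5 libraries per group) in the left atrium and left ventricle for 37 of the 38 tested genes, ordered by position in complex I, without a length term (orange) and with the length slope (green); filled points have an adjusted p under 0.05. In the atrium 33 orange points are filled above 0, and the green ones lie closer to 0 except for Ndufa4l2 at -1.50 and Ndufv3 at -0.45. In the ventricle most orange points lie below 0, and the green ones lie closer to it except for Ndufs1, Ndufs3, Ndufv1 and Ndufa9.

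In the hyperoxic ventricle the median Nduf difference was below 0 without a length term and near 0 with the slope. The summed level was 12001, 10998, 11728, 11171 and 13312 CPM in the hyperoxic ventricles, against 14866, 16511, 12590, 22918 and 12824 CPM in the room-air ventricles. The highest value is the tilted room-air ventricle 4, and the remaining 4 averaged 14198 ± 1850 CPM (SD), against 11842 ± 917 CPM (SD, n = 5) in the hyperoxic group. Without a length term 1 of 38 rose and 4 fell, with a median log2 difference of -0.50, against 5.64% and 5.28% of all genes and a median of -0.006. With the slope 4 rose and 1 fell, with a median of -0.006, against 6.3% and 5.95%. Without the 3 tilted libraries 1 rose and 24 fell, with a median of -0.34, against 10.3% and 9.13%. The number that fell was also 24 with only the ventricles in the fit and 10 with DESeq2. The 4 that fell without a length term became 14 without hyperoxic atrium 2 and 7 without hyperoxic atrium 1 or 4. They became 1 without hyperoxic ventricle 1, 2, 4 or 5, room-air atrium 1, 2 or 3, or room-air ventricle 1, 2 or 4, and 2 without hyperoxic ventricle 6 or room-air atrium 5. In the 4 room-air ventricles kept in that fit the slopes were still lower than in every hyperoxic ventricle, from -0.0681 to 0.0242, against 0.0361 to 0.0961 in the hyperoxic ventricles. When the slope was added to that fit, 0 rose and 1 fell. No gene was higher and 6 were lower in every hyperoxic than in every room-air ventricle, against 6.51% and 5.93% of all genes.

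The genes that rose in the ventricle with the slope were all core subunits, and apart from Ndufs1 none of them rose without the tilted libraries. Every room-air ventricle had a lower slope (-0.218 to 0.0242) than every hyperoxic ventricle (0.0361 to 0.0961). Slope and oxygen therefore cannot be fully told apart in the ventricle, which limits all ventricular values with the slope. Ndufs1 (chr1:63143596-63176833, minus strand) had 398, 377, 539, 503 and 500.0 CPM in the hyperoxic ventricles, against 329.5, 378, 333, 424 and 367 CPM in the room-air ventricles. It was the only gene to rise in both fits, by 0.34 ± 0.11 without (adjusted p = 0.047) and 0.42 ± 0.10 with the slope (adjusted p = 0.0081). The groups overlapped, and the call without the slope was lost in 13 of the 20 fits that left out 1 library (all except hyperoxic atria 1, 2, 4 and 5, hyperoxic ventricles 1 and 2 and room-air ventricle 4), with RLE or upper-quartile scaling (adjusted p = 0.059 and 0.063) and with no filter on low counts (adjusted p = 0.062). Ndufs3 had 192, 188, 208, 203 and 221 CPM in the hyperoxic ventricles, against 210.0, 218, 186, 322 and 193 CPM, and differed by 0.24 ± 0.068 with the slope (adjusted p = 0.021) and -0.16 ± 0.17 without. Ndufv1 had 594, 611, 563, 643 and 652 CPM, against 692, 663, 562, 804 and 540.3 CPM. Its groups overlapped, and it differed by 0.22 ± 0.068 with the slope (adjusted p = 0.037). Without the tilted libraries Ndufs3 and Ndufv1 were at 0.0039 ± 0.076 and -0.0031 ± 0.086 (adjusted p = 0.98 and 0.99), and each passed in 2 of 37 fits, those with either length slope. In all, 4 of the 7 core subunits rose with the slope, with a median of 0.21, and 0 of the accessory subunits did. None of these 4 passed once the share of Y-linked reads was added beside the slope. In that fit 0 of the 38 rose, and the largest difference among them was 0.32. More Y-linked than Xist reads were found in 2 of 5 hyperoxic and in 5 of 5 room-air ventricles. Sex and oxygen therefore cannot be fully told apart in that fit. In all, 17 of the 38 changed sign between the fits in the ventricle, all from below to above 0, and Ndufs3 and Ndufv1 were the ones of these that passed. The others were Ndufv2 and Ndufs4 of the N module, Ndufa9 and Ndufs7 of the Q module, Ndufa10 and Ndufc2 of the proximal arm, Ndufb3, Ndufb4, Ndufb5, Ndufb8, Ndufb9, Ndufb10 and Ndufb11 of the distal arm, Ndufa4 and Ndufb4c.

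Ndufv3, Ndufb7 and Ndufa11 fell in the hyperoxic ventricle without a length term and passed in neither direction with it. Ndufv3 had 370.2, 307, 292, 323 and 409 CPM in the hyperoxic ventricles, against 471, 607, 389, 745 and 448 CPM in the room-air ventricles, with -0.64 ± 0.20 without (adjusted p = 0.041) and -0.20 ± 0.081 with the slope (adjusted p = 0.10). Ndufb7 had 441, 376, 347, 364 and 454 CPM, against 661, 725, 509.5, 1214 and 480.4 CPM. All hyperoxic ventricles were below all room-air ones for Ndufb7, and the difference was -0.86 ± 0.27 without and -0.20 ± 0.080 with the slope. Ndufa11 was -0.78 ± 0.24 without and -0.21 ± 0.083 with the slope. Without the tilted libraries Ndufv3, Ndufb7 and Ndufa11 fell, with log2 differences of -0.49 ± 0.11, -0.58 ± 0.12 and -0.54 ± 0.12. Ndufs4 had 207, 191, 278, 199.6 and 231 CPM in the hyperoxic ventricles, against 262, 275, 232, 417 and 227 CPM, Ndufc2 had 203, 176, 177, 193 and 239 CPM, against 242, 255, 201, 333 and 214 CPM, and neither passed. Ndufb11 with 475, 433, 416, 432 and 526 CPM, against 544, 644, 483, 789.7 and 532 CPM, passed in neither of these fits. Without the tilted libraries Ndufb11 fell (-0.27 ± 0.091, adjusted p = 0.039), while Ndufs4 and Ndufc2 did not pass. Ndufa1 had 257, 234, 197, 215 and 253 CPM, against 278, 384, 275, 433 and 292 CPM, without overlap, at -0.52 ± 0.19 without (adjusted p = 0.074) and -0.11 ± 0.079 with the slope, and it fell without the tilted libraries (-0.41 ± 0.10, adjusted p = 0.0069).

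Spearman's rho between transcript length and the log2 difference in the ventricle over 37 genes was 0.39 without and 0.42 with the slope, so the longer members stood higher in both fits. The atrial marker Myl7 reached 128 CPM in hyperoxic and 530 CPM in room-air ventricles. With ventricular Myl7 as a covariate, an alternative chosen after seeing the data, 0 of 38 rose and 0 fell. In that fit 37 of the 38 lay below 0, with a median log2 difference of -0.60, beside -0.50 without the covariate. The calls were thus lost although the median was not nearer 0. Of all genes 5.64% rose and 5.28% fell in the ventricle without a length term, and 6.3% and 5.95% with the slope. Summed cardiomyocyte markers ran from 38692 to 42683 CPM in hyperoxic and from 34174 to 45965 CPM in room-air ventricles. Of these 6 markers 1 rose without a length term and 3 with the slope. Of 5 erythroid markers 2 fell without a length term and 0 with the slope. Their sums ran from 900.0 to 1264 CPM in hyperoxic and from 1800.1 to 2850 CPM in room-air ventricles. Endothelial markers fell in 3 of 7 cases without a length term and in 6 with the slope. Their sums ran from 1430 to 1604 CPM in hyperoxic and from 1805 to 2004 CPM in room-air ventricles. What part these had in the differences was not tested.

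The response of the atrium minus that of the ventricle was tested directly. Without a length term it was above 0 with a call in 34 of 38 genes and below 0 in 0, with a median of 1.15, against 17% and 19.5% of all genes and a median of -0.064. With the slope it was 1 above and 2 below, with a median of 0.03, against 6.72% and 9.13%. Without the tilted libraries it was 29 above and 1 below, with a median of 0.47, against 11% and 15.1%, and 0 above and 1 below when the slope was added to that fit. Ndufa12 was the gene above 0 with the slope, at 0.40 ± 0.12 (adjusted p = 0.023). It rose in the atrium and had 135, 116, 106, 115 and 147 CPM in the hyperoxic ventricles, against 179, 191, 146, 274 and 143 CPM in the room-air ventricles, a difference there of -0.11 ± 0.074 with the slope and -0.41 ± 0.10 without the tilted libraries (adjusted p = 0.0066). Ndufs3 at -0.33 ± 0.11 (adjusted p = 0.040) and Ndufa4l2 at -0.95 ± 0.19 (adjusted p = 6.7e-04) were below 0. Ndufs3 was at 0.59 ± 0.25 without the slope and 0.012 ± 0.11 without the tilted libraries, and passed in neither. Of its 38 fits 3 passed below 0, all with a length slope, and 10 above 0, all without one. Ndufa4l2 was at -0.75 ± 0.16 and Ndufa12 at 0.84 ± 0.15 without the tilted libraries, both passing. Ndufa10 and Ndufb6, next in order of p above 0, were at 0.25 ± 0.11 and 0.23 ± 0.12 with the slope and did not pass. Ndufv3 was at -0.25 ± 0.13 and likewise did not pass. In all, 12 of the 38 lay above 0 without and below 0 with the slope, namely Ndufs3, Ndufv1, Ndufv2, Ndufv3, Ndufa1, Ndufa2, Ndufc2, Ndufb2, Ndufb3, Ndufb4, Ndufb5 and Ndufb11. Without hyperoxic atrium 4 alone, 33 were above 0 and 1 below in the fit with no length term.

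Ndufa4l2 fell in both hyperoxic chambers whichever way length was treated. This gene (chr10:127514967-127517154, plus strand) is a known target of hypoxia-inducible factor 1, and its protein lowers complex I activity in low oxygen. It had 8.09, 10.3, 6.66, 11.5 and 7.19 CPM in the hyperoxic atria, against 18.6, 19.4, 17.6, 20.6 and 23.1 CPM in the room-air atria. It had 22.9, 26.2, 19.1, 21.9 and 18.7 CPM in the hyperoxic ventricles, against 40.0, 33.9, 30.6, 47.4 and 36.4 CPM in the room-air ventricles. The groups did not overlap in either chamber, and within each group the tilted libraries were the highest. In the atrium the log2 difference was -1.18 ± 0.15 without (adjusted p = 1.3e-06), -1.50 ± 0.12 with the slope (adjusted p = 3.9e-10) and -1.44 ± 0.12 without the tilted libraries, and it passed in 37 of 37 fits. In the ventricle it was -0.79 ± 0.14 without (adjusted p = 0.0022), -0.55 ± 0.11 with the slope (adjusted p = 0.0020) and -0.69 ± 0.10 without the tilted libraries, and it passed in 35 of 37 fits. The exceptions were the fits with the share of Y-linked reads (-0.67, adjusted p = 0.082) and with ventricular Myl7 (-0.71, adjusted p = 0.082). Of the 38 genes it was the only one below every room-air atrium in every hyperoxic atrium, where 19.3% of all genes were.

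Its paralog Ndufa4 rose in the hyperoxic atrium without a length term (0.63 ± 0.20, adjusted p = 0.015) and passed in neither chamber with the slope. Ndufa4 had 416, 914, 515, 1035 and 511 CPM in the hyperoxic atria, against 472, 394, 413, 505 and 413 CPM in the room-air atria, and 741, 773, 836, 697 and 864 CPM in the hyperoxic ventricles, against 1052, 1118, 833, 1453 and 862 CPM in the room-air ventricles. With the slope the differences were 0.021 ± 0.083 in the atrium and 0.0059 ± 0.079 in the ventricle. In the ventricle Ndufa4 was at -0.44 ± 0.20 without the slope, which did not pass, and fell without the tilted libraries (-0.30 ± 0.10, adjusted p = 0.035). Per 100 CPM of Ndufa4, Ndufa4l2 stood at 1.38 ± 0.34 in hyperoxic and 4.56 ± 0.69 in room-air atria, and at 2.81 ± 0.55 in hyperoxic and 3.6 ± 0.47 in room-air ventricles (SD, n = 5 each). This ratio was chosen after the values were seen and was not tested. The fall in the atrium was larger than in the ventricle with the slope, as the test of the difference above gives, but that difference did not pass without a length term (-0.39 ± 0.20, adjusted p = 0.13).

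**Figure D3:**
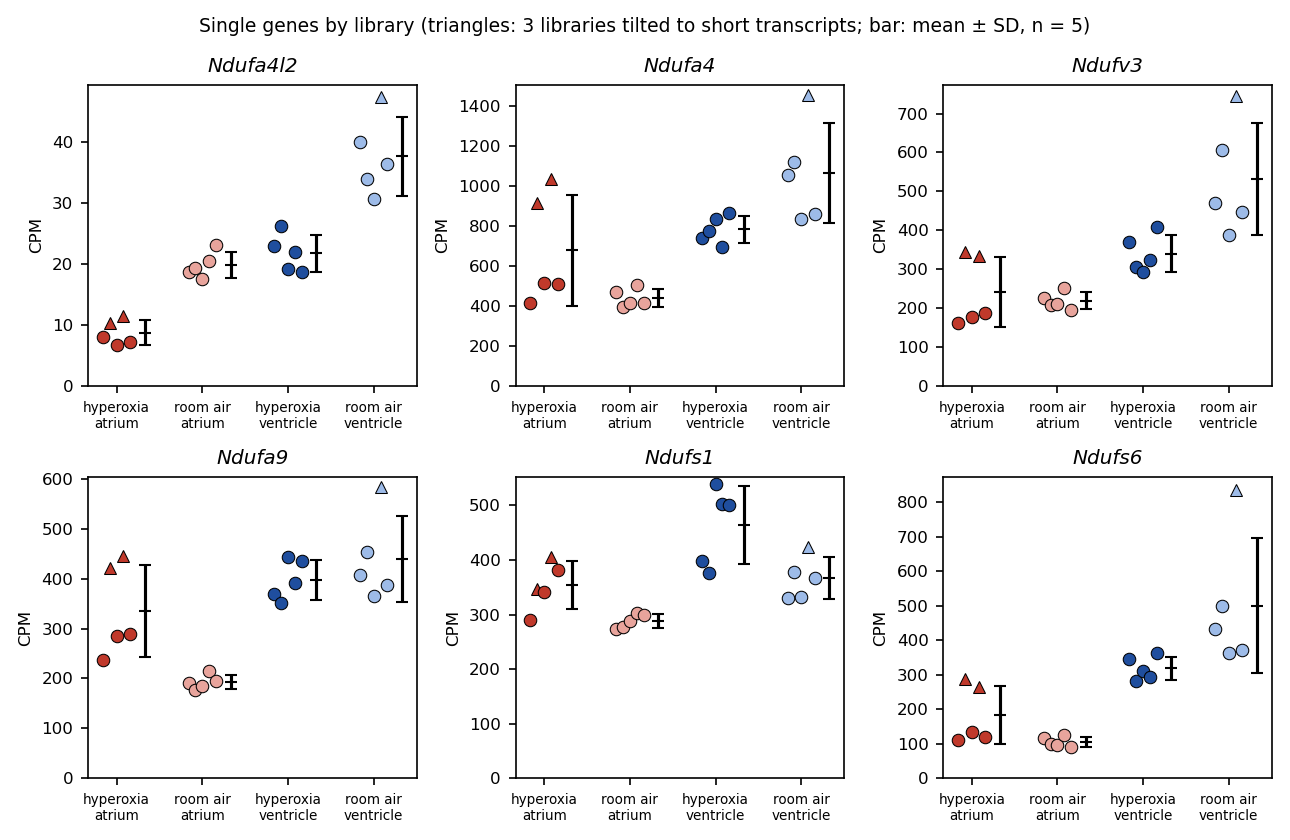
CPM in each library for 6 genes, by group, with mean ± SD (n = 5) and triangles for the 3 tilted libraries. Ndufa4l2 is lower in every hyperoxic library than in every room-air library of its chamber, the triangles are the 2 highest hyperoxic atria for Ndufa4 and Ndufv3, Ndufa9 is higher in all 5 hyperoxic atria, and Ndufs6 is lower in the atria than in the ventricles, with 1 hyperoxic atrium (number 2) inside the ventricular range.

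Between the chambers the Nduf genes were lower in the atrium than in the ventricle. The length slope was measured relative to the chamber mean. It therefore cannot adjust for a length bias shared by all libraries of a chamber, and the chamber differences with the slope keep any such bias. In room air all 38 passed as lower, without a length term (median log2 difference -1.31), with the slope (-0.82) and without the tilted libraries (-1.15), against 26.3%, 24.5% and 27.1% of all genes. None was higher, against 28.7%, 25.8% and 30.1% of all genes. Every gene was lower in every room-air atrium than in every room-air ventricle, where 21.4% of all genes were. In hyperoxia that held for Ndufa4l2 alone, and for 16.3% of all genes. In hyperoxia 0 were higher and 6 lower in the atrium without a length term, with a median of -0.23, against 25.2% and 23.6% of all genes, while with the slope 37 were lower, with a median of -0.79, against 27.4%. Without the tilted libraries 37 were lower as well, with a median of -0.72, against 25.6%. None was higher in either fit, against 26.3% and 25.5% of all genes. The exception in both was the pseudogene Ndufb4c. The 2 tilted atria had summed levels of 14508 and 14311 CPM, above all 5 hyperoxic ventricles at 10998 to 13312 CPM, and the other 3 atria were below all of them. The 6 became 10 without hyperoxic atrium 2, 14 without hyperoxic atrium 4 and 3 without hyperoxic atrium 1 or 5 or hyperoxic ventricle 6. Ndufa11, Ndufa12, Ndufb6 and Ndufb4c were above 0 without the slope, at 0.25 ± 0.24, 0.20 ± 0.21, 0.060 ± 0.20 and 0.32 ± 0.48, none passing, and below 0 with it.

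Ndufs6 had the widest gap between the chambers in room air, and after Ndufa4l2 the widest in hyperoxia. The gene lies at chr13:73319838-73328542 on the minus strand. It had 112, 288, 134, 264 and 119.9 CPM in hyperoxic atria, against 345, 283, 309.8, 294 and 362 CPM in hyperoxic ventricles. In room air it had 117, 98.6, 96.8, 126 and 90.4 CPM in atria, against 432, 501, 362, 837 and 372 CPM in ventricles. Its log2 difference was -1.51 ± 0.081 in hyperoxia and -1.59 ± 0.081 in room air with the slope (adjusted p = 1.0e-14 and 3.4e-15), and -0.80 ± 0.25 and -2.24 ± 0.26 without it. Ndufs1 had the narrowest in room air, at -0.26 ± 0.10 (adjusted p = 0.040) with the slope and -0.34 ± 0.11 without. In hyperoxia with the slope Ndufa12 and Ndufa10 were narrowest among the genes that passed, at -0.39 ± 0.076 and -0.39 ± 0.070. Ndufa3 of the proximal arm and Ndufb11 of the distal arm had the smallest p after Ndufs6, at -1.10 ± 0.078 and -0.88 ± 0.065 in hyperoxia and -1.10 ± 0.077 and -0.88 ± 0.064 in room air. Without the slope the smallest p in room air after Ndufs6 were those of Ndufa9 at -1.19 ± 0.15 and Ndufb8 at -1.26 ± 0.16.

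The distal membrane arm had the widest median gap between the chambers. With the slope the medians in room air were -0.59 over the 7 core genes, -0.78 over the 8 N-module genes, -0.76 over the 8 Q-module genes, -0.85 over 9 proximal and -0.93 over 10 distal genes. In hyperoxia they were -0.67, -0.74, -0.65, -0.76 and -0.93 in the same order. These medians are descriptions and the differences among them were not tested. Ndufv1 and Ndufs4 differed by -0.59 ± 0.070 and -0.71 ± 0.10 in room air, and Ndufc2 and Ndufa1 by -0.54 ± 0.071 and -0.84 ± 0.081. Ndufa4 differed by -0.78 ± 0.081 and Ndufa4l2 by -0.65 ± 0.11 in room air, and Ndufa4l2 differed by -1.60 ± 0.12 in hyperoxia. Cardiomyocyte markers moved in the same direction, with 6 of 6 lower in the atrium in hyperoxia and 4 of 6 in room air, on the sums given above. All 5 fibroblast markers were higher in the room-air atrium, from 2940 to 3664 CPM, against 1337 to 2052 CPM in the room-air ventricle. In the room-air atrium 5 of 5 macrophage markers were also higher, and 4 of 7 endothelial markers lower, than in the room-air ventricle. In the hyperoxic atrium 5 of 5 macrophage and 5 of 5 erythroid markers were higher than in the hyperoxic ventricle. Of 7 endothelial markers 6 were lower and 1 higher there. These marker counts are without a length term. With the slope the counts of lower endothelial markers were 5 of 7 in room air and 4 of 7 in hyperoxia, and the others were the same. Of all genes 28.7% were higher and 26.3% lower in room air without a length term, and 25.2% and 23.6% in hyperoxia. The part of these markers in the chamber differences was not tested.

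**Figure D4:**
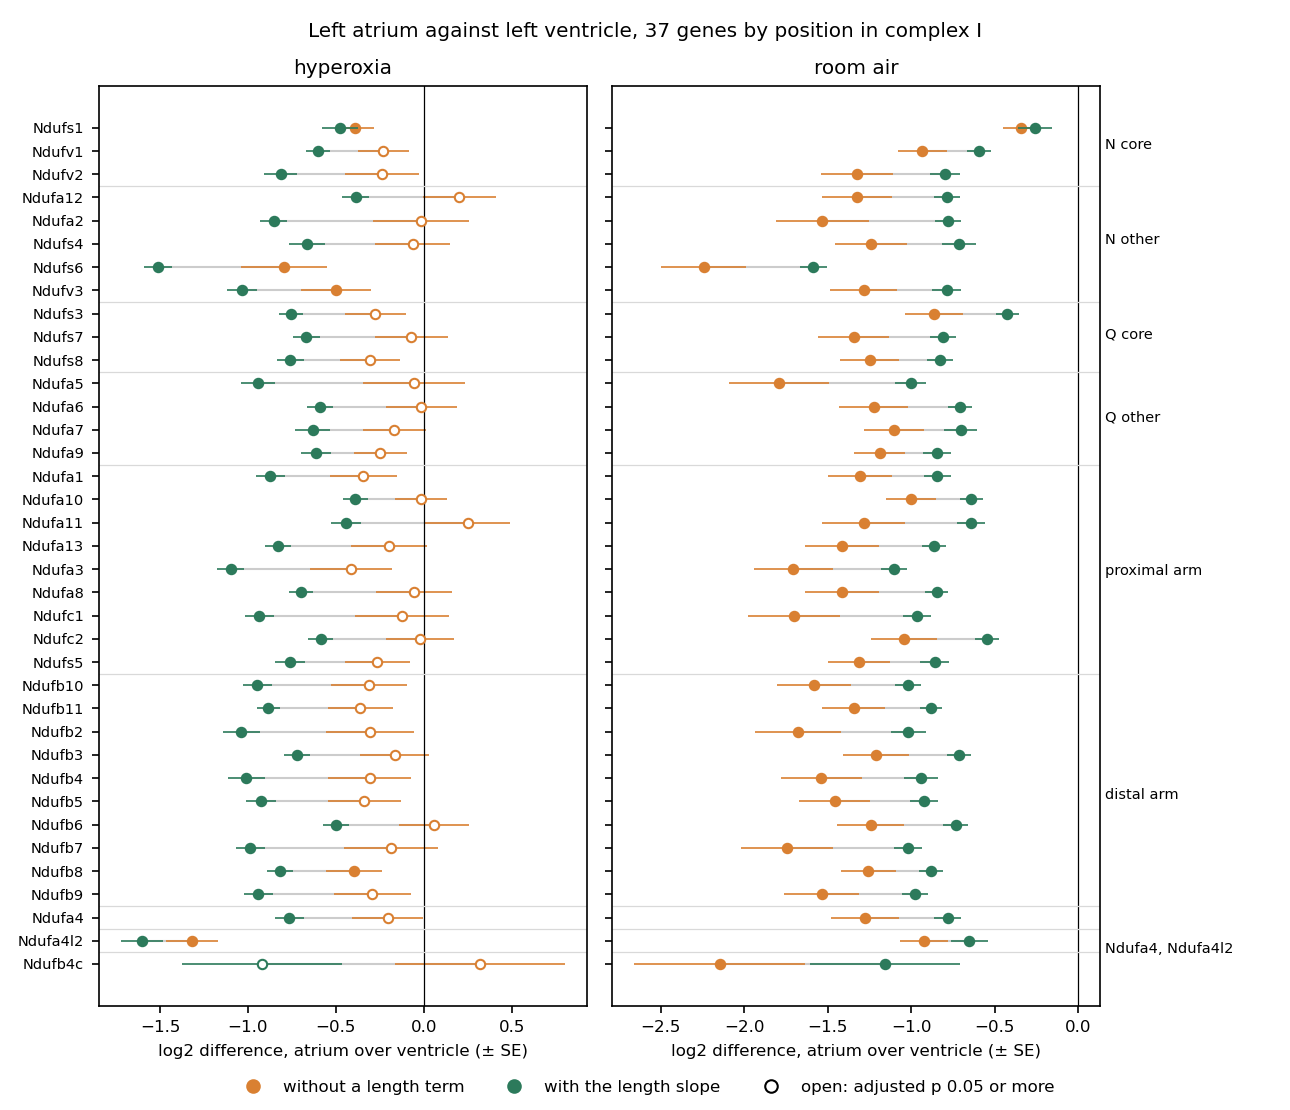
Log2 difference of atrium over ventricle (± SE, edgeR fit on 5 libraries per group) in hyperoxia and room air for 37 of the 38 tested genes, without a length term (orange) and with the length slope (green); filled points have an adjusted p under 0.05. In room air all points are filled and below 0, widest for Ndufs6, and in hyperoxia 36 green but 5 orange points are filled.

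Other genes of the respiratory chain were read from lists chosen with earlier results known. All 6 measured complex I genes of the mitochondrial genome were lower in the room-air atrium than in the room-air ventricle, with a median log2 difference of -1.53 and -1.54 with the slope, and in hyperoxia 5 of 6 were. Of all genes 26.3% were lower in room air without and 24.5% with the slope, and 23.6% and 27.4% in hyperoxia. Between oxygen levels 1 of 6 rose in the hyperoxic atrium without a length term (mt-Nd3, 3.12 ± 0.86, adjusted p = 0.0056) and 0 with it, and 0 changed in the ventricle. Over all genes 19.7% rose in the hyperoxic atrium without and 17.6% with the slope. Ndufab1, the acyl carrier subunit, rose in the hyperoxic atrium by 0.30 ± 0.081 with the slope (adjusted p = 0.0041) and did not pass in the ventricle.

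Of 18 assembly factors, which build the enzyme but are not part of it, 11 rose in the hyperoxic atrium without and 6 with the slope, and 0 fell. Over all genes 19.7% rose there without and 17.6% with the slope, and 24.2% and 22.6% fell. The largest with the slope were Ndufaf4 at 0.79 ± 0.10 (adjusted p = 2.8e-07), Ndufaf6 at 0.70 ± 0.12 and Ndufaf1 at 0.53 ± 0.11, with Timmdc1 at 0.50 ± 0.10 and Ecsit at 0.40 ± 0.074. In the hyperoxic ventricle 3 rose without and 10 with the slope, among them Tmem70 at 0.42 ± 0.085 and Ndufaf4 at 0.52 ± 0.093 with the slope, and 0 fell. The shares of all genes in the ventricle were 5.64% higher and 5.28% lower without, and 6.3% and 5.95% with the slope. Of 7 regulators 4 rose and 1 fell in the hyperoxic atrium in both fits. With the slope Esrra, a nuclear receptor of mitochondrial genes, rose by 0.53 ± 0.10 and Ppargc1b, a coactivator, by 0.67 ± 0.16. Tfam, a transcription factor of mitochondrial DNA, rose by 0.32 ± 0.074 in that fit. Nrf1 rose by 0.21 ± 0.079 and Gabpa fell by 0.22 ± 0.075. In the hyperoxic ventricle Perm1, a muscle regulator of these genes, rose by 0.58 ± 0.10, with Ppargc1b at 0.58 ± 0.15, Ppargc1a at 0.32 ± 0.094 and Tfam at 0.38 ± 0.071 with the slope. Perm1 was also lower in the room-air atrium than in the room-air ventricle, at -1.49 ± 0.10.

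Subunits of the other complexes were also called mostly in the fit without a length term in the atrium. In the hyperoxic atrium 3 of 4 complex II, 8 of 9 complex III and 14 of 18 complex V genes rose without a length term, and 2, 2 and 3 with the slope, where 1 complex V gene fell. Over all genes 19.7% rose without and 17.6% with the slope, where 22.6% fell. The 3 of 18 complex V genes thus lie near the share of all genes. Sdhb at 0.41 ± 0.076, Uqcrc2 at 0.49 ± 0.10 and Atp5c1 at 0.25 ± 0.084 had the smallest p of their lists with no length term and passed with it. In the hyperoxic ventricle 0, 0 and 0 of the same lists rose and 1 complex V gene (Atp5e) fell without a length term, and 2, 1 and 3 rose with the slope. There 5.64% of all genes rose and 5.28% fell without a length term, and 6.3% rose with the slope. In room air 4 of 4, 9 of 9 and 18 of 18 were lower in the atrium than in the ventricle in both fits, against 26.3% of all genes without and 24.5% with the slope. Differences between these lists and the Nduf genes were not tested.

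**Figure D5:**
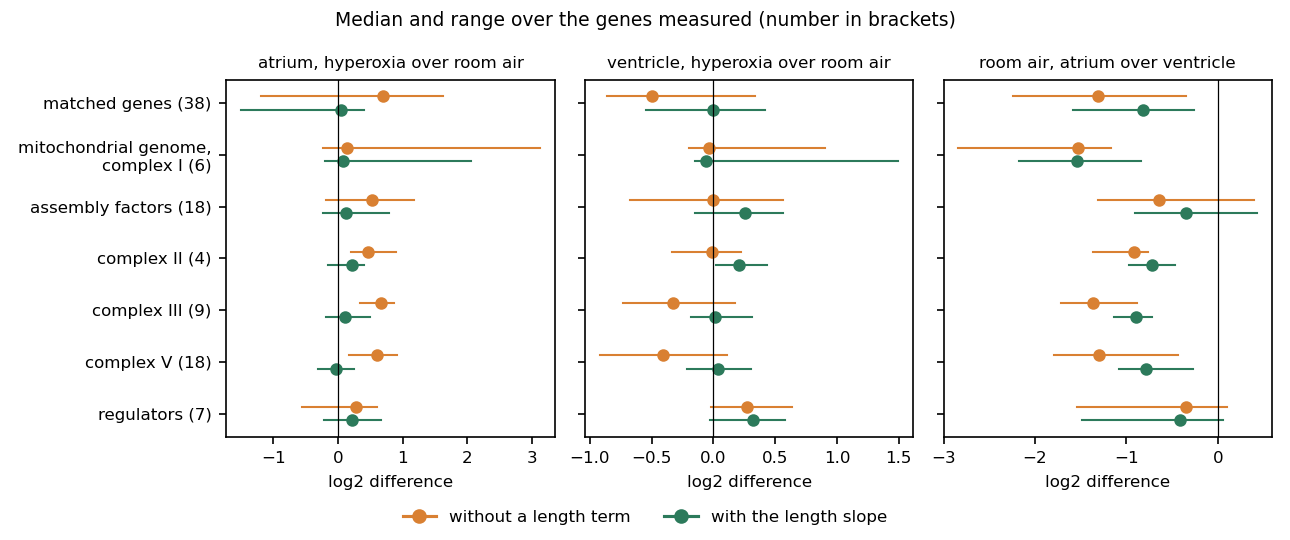
Median (point) and range (line) of the log2 difference over the genes measured in each list, without a length term (orange) and with the length slope (green), for hyperoxia over room air in the atrium and in the ventricle and for atrium over ventricle in room air. In the atrium every nuclear subunit list has a median nearer 0 with the slope, in the ventricle the complex I, III and V lists do and complex II does not, and all medians lie below 0 between the chambers.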

How the data were processed

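Poly(A) RNA was sequenced from 20 left atria and left ventricles of pups, and the authors deposited raw read counts per gene and library. Per the labels the libraries were made with the TruSeq Stranded mRNA kit. The submitters' processing notes name fastp 0.20.1, STAR 2.7.6a, Subread 2.0.1 with featureCounts, Salmon 1.3.0 and GRCm38.p6. Neither the release of the annotation nor the strand setting is given in the sources used here. Poly(A) capture of partly broken RNA can tilt counts by transcript length, which is why a length slope was measured in each library.

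Total counts were 26510081 to 38244117 per library. The common biological coefficient of variation was 0.183 in the fit on all 20 libraries without a length term. It therefore holds the tilt of the tilted libraries as well as the spread between mice. Counting error is small beside it for genes with high counts, but not for Ndufb4c with 399 counts. Genes passing filterByExpr (16598) were tested with edgeR 4.0.16 (R 4.3.3): TMM scaling, all 20 libraries, 1 coefficient per group, robust quasi-likelihood tests and Benjamini-Hochberg adjustment over all genes, with calls at an adjusted p under 0.05. CPM values use TMM-scaled library sizes. The length slope used genes of at least 5 CPM, and libraries with a slope under -0.2 were called tilted. Gene positions, exon lengths and principal transcripts came from GENCODE M21 on GRCm38, promoter windows from RefSeq. The code was tested on simulated data. No libraries of a group agreed within sampling noise. Labels name individual mice as replicates.

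The genes and the lists of related genes and cell type markers were chosen with earlier results of these data known. Named in full are Ndufv1, Ndufs1, Ndufs4, Ndufa1, Ndufb11, Ndufc2, Ndufa4 and Ndufa4l2, the 3 genes with the smallest p in each direction in each comparison and fit, the genes passing with the length slope and those changing sign between the fits. The values of 1 gene that enters the counts are not reported here. From each related list up to 3 genes with the smallest p were named, and others were named after their values were seen. Alternatives were other scalings and filters, the slope and sex covariates, left-out libraries, a replicate block, limma 3.58.1 and DESeq2 1.42.0. Adding ventricular Myl7, the slope on principal transcript length, or the slope without the tilted libraries was chosen after seeing the data.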

Additional observations from a re-analysis of the deposited data

Results flagged for a closer look

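In the room-air ventricle, library 4 lay far above the other 4 for Ndufa10 (814 CPM), Ndufs3 (322 CPM) and Ndufs4 (417 CPM), by the gap to its nearest neighbour relative to the range of the group. This library is one of the 3 tilted to short transcripts, with a slope of -0.218. In the room-air atrium, library 4 was the lowest for the pseudogene Ndufb4c at 0.0776 CPM. Chance marks about 1 in 20 groups in this way.

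The response to hyperoxia differed between atrium and ventricle, by the test of the difference itself, in 34 of the 38 Nduf genes without a length term, all with the atrial response above the ventricular one. With the length slope in the model the difference passed for Ndufa12 (log2 0.40), Ndufs3 (-0.33) and Ndufa4l2 (-0.95). Ndufs3 was at 0.012 without the tilted libraries and did not pass.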

How the results depend on the processing

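Among the 5 comparisons, the room-air chamber difference gave 36 to 38 genes lower under every setting run, and 38 in all 20 fits that left out 1 library. For hyperoxia in the atrium, 34 rose and 1 fell, which became 6 and 3 with the length slope, 4 and 4 with the slope on principal transcripts, 11 and 2 without the tilted libraries, 5 and 2 without them and with the slope, 0 and 2 with the Y-linked share and the slope, and 6 and 2 with the replicate block and the slope; limma voom gave 19 that rose. Leaving out 1 library gave 19 to 36 that rose and 1 that fell. In the ventricle, 1 rose and 4 fell. None rose (0) with RLE or upper-quartile scaling, no filter, the tilted libraries left out with the slope, the Y-linked share with or without the slope, Myl7 or only the libraries compared, and 4 rose with either slope. The number that fell was 1 with no filter, either slope, the tilted libraries left out with the slope, the Y-linked share with the slope or the replicate block with the slope, 0 with the Y-linked share or Myl7, 24 without the tilted libraries or with only the libraries compared, 20 with the replicate block, 12 with limma voom and 10 with DESeq2. Leaving out 1 library gave 0 to 1 that rose and 1 to 14 that fell. In the atrial minus ventricular response, 34 above and 0 below 0 became 1 and 2 with either slope, 0 and 1 without the tilted libraries and with the slope, 1 and 2 with the Y-linked share and the slope, and 0 and 1 with the replicate block and the slope, with 1 below 0 without the tilted libraries and with limma voom; leaving out 1 library gave 33 to 36 and 0 to 1. Between the hyperoxic chambers, 0 higher and 6 lower became 37 lower with either slope, without the tilted libraries with or without the slope, with the Y-linked share or the replicate block and the slope, and with limma voom, and 3 with Myl7, with only the libraries compared and with the replicate block by oxygen and number; leaving out 1 library gave 0 higher and 3 to 14 lower. The named values that changed sign and passed in the fit without a length term, in the alternative or in both were as follows, and sign changes with no call in either are not listed. In the atrium, these were Ndufa2 -0.19, Ndufv3 -0.45 with the length slope, Ndufa2 -0.26, Ndufa4 -0.032, Ndufb11 -0.026, Ndufv3 -0.50 with the slope on principal transcripts, Ndufa2 -0.00147, Ndufv3 -0.32 with the tilted libraries left out, Ndufa2 -0.15, Ndufv3 -0.45 with the tilted libraries left out and the slope, Ndufa2 -0.14, Ndufa4 -0.00968, Ndufv3 -0.42 with the Y-linked share and the slope, Ndufa2 -0.21, Ndufv3 -0.44 with the replicate block and the slope. In the ventricle, these were Ndufs3 0.24, Ndufv1 0.22 with the length slope; Ndufs3 0.23, Ndufv1 0.20 with the slope on principal transcripts. In the atrial minus ventricular response, these were Ndufa1 -0.029, Ndufb11 -0.00245, Ndufc2 -0.043, Ndufs3 -0.33, Ndufv1 -0.00761, Ndufv3 -0.25 with the length slope, Ndufa1 -0.068, Ndufa4 -0.025, Ndufb11 -0.039, Ndufc2 -0.080, Ndufs3 -0.36, Ndufv1 -0.031, Ndufv3 -0.29 with the slope on principal transcripts, Ndufa1 -0.041, Ndufb11 -0.015, Ndufc2 -0.020, Ndufv1 -0.014, Ndufv3 -0.33 with the tilted libraries left out and the slope, Ndufa4 -0.00151, Ndufc2 -0.043, Ndufs3 -0.37, Ndufs4 -0.018, Ndufv1 -0.000189, Ndufv3 -0.23 with the Y-linked share and the slope, Ndufa1 -0.084, Ndufc2 -0.043, Ndufv1 -0.062, Ndufv3 -0.18 with the replicate block and the slope. Between the hyperoxic chambers, these were Ndufa11 -0.44, Ndufa12 -0.39 with the length slope, Ndufa11 -0.47, Ndufa12 -0.41 with the slope on principal transcripts, Ndufa11 -0.33, Ndufa12 -0.30 with the tilted libraries left out, Ndufa11 -0.41, Ndufa12 -0.37 with the tilted libraries left out and the slope, Ndufa11 -0.44, Ndufa12 -0.38 with the Y-linked share and the slope, Ndufa11 -0.40, Ndufa12 -0.40 with the replicate block and the slope, Ndufa12 -0.29, Ndufb4c -0.86 with limma voom. The cause of these changes was not tested. Of 2524 values of single genes under the alternatives, 2097 kept their call and its sign or, where neither fit passed, moved by less than their SE, 109 gained a call, 185 lost one, 72 that passed in neither fit moved by at least their SE, and 61 changed sign with a call in at least 1 of the fits. Same-numbered libraries did not all deviate together (correlations from -0.20 to 0.46), and whether equal numbers share a mouse is not known, so the samples were not treated as pairs; with the replicate block alone 35 rose and 1 fell in the atrium, 1 and 20 in the ventricle, and 36 and 0 were above and below 0 in the difference. With the block by oxygen and number the difference gave 35 and 0, the hyperoxic chambers 3 lower and the room-air chambers 38 lower. Low counts limit Ndufb4c, and sex, not given by the labels, was unequal between the groups.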

Other observations

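Further marker lists had these values without a length term. In the hyperoxic atrium 2 of 5 smooth muscle and pericyte markers rose and 3 fell, with sums from 955 to 1318 CPM in hyperoxic and from 1079 to 1234 CPM in room-air atria. Epicardial markers rose in 1 of 3 cases there, with sums from 332 to 363 CPM in hyperoxic and from 204 to 331 CPM in room-air atria. Of 3 lymphocyte markers 1 rose, with sums from 6.13 to 9.96 CPM in hyperoxic and from 3.58 to 6.66 CPM in room-air atria. Erythroid markers did not pass in the atrium, where their sums ran from 1731 to 5702 CPM in hyperoxic and from 1075 to 5981 CPM in room-air atria. Of 4 neuronal and glial markers, 2 passed the low-count filter and 1 fell, with sums from 6.13 to 9.42 CPM in hyperoxic and from 10.2 to 12.2 CPM in room-air atria. In the hyperoxic ventricle 1 of 5 macrophage markers rose, with sums from 54.7 to 73.0 CPM in hyperoxic and from 46.65 to 57.2 CPM in room-air ventricles. Epicardial markers fell in 1 of 3 cases, with sums from 43.7 to 101 CPM in hyperoxic and from 43.7 to 119 CPM in room-air ventricles. Of 5 smooth muscle and pericyte markers 1 fell, with sums from 1049.7 to 1525 CPM in hyperoxic and from 1267 to 1789 CPM in room-air ventricles. Of 4 ventricular cardiomyocyte markers 1 rose, although their sums ran from 20629 to 23652 CPM in hyperoxic and from 22351 to 41456 CPM in room-air ventricles. Of 5 atrial cardiomyocyte markers 1 rose and 2 fell, with sums from 216 to 838 CPM in hyperoxic and from 1015 to 1924 CPM in room-air ventricles. With the slope 1 smooth muscle and pericyte marker rose in the hyperoxic atrium. In the hyperoxic ventricle with the slope 3 macrophage markers rose, 2 smooth muscle and pericyte markers fell and 0 atrial cardiomyocyte markers fell. The other counts of calls in this paragraph were the same with the slope.

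In the ventricles the ratio of Ndufv3 to Ndufv2, chosen after the values were seen and not tested, was 58.6 ± 8.6 per 100 in hyperoxia and 73.3 ± 7.8 per 100 in room air (SD, n = 5 each).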
